A study of Mus musculus with 108 samples.

Results

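Cathepsins, other hydrolases of the lysosome and the proteins that build or control this organelle were followed through the RNA of myeloid cells sorted from mouse brain metastases. The set held 38 genes, taken by symbol from the 49585 genes of the count table, and each symbol was found. All mice were of the Balb/C athymic nude strain, which lacks a thymus and most T cells, and they bore, except for the controls, brain metastases of lung tumour cells. The question behind the groups, per the series' title and design, was how the myeloid cells of brain metastases differ with disease progression and radiotherapy from their counterparts in healthy mice. Cells of 4 kinds were sorted from tumour-bearing brains: granulocytes (Gran), bone marrow- or monocyte-derived macrophages (BMDM), inflammatory monocytes (Mono) and microglia (MG). Each kind was taken after whole-brain radiotherapy, as 1 fraction of 10 Gy at day 3 (3 libraries per kind) or 5 fractions of 2 Gy at day 3, 5 or 10 (4, 4 and 3 libraries per kind), from tumours not divided by stage. Without irradiation, cells came from tumours of the large stage (5 libraries per kind) and of the small stage (5 of MG, 5 of BMDM, 4 of Mono and 4 of Gran). The tumour-free groups were microglia (4 libraries), microglia titled as 5x2 day 3 or day 5 (3 libraries each, with a radiotherapy field of none, here called titled 5x2) and blood monocytes (4 libraries). Neither the age of the mice nor how many gave the cells of a library is stated in the labels.

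Lysosomes are acidic compartments in which phagocytes digest what they take up and what they recycle from within. A proton pump, the V-type ATPase, acidifies them, highly glycosylated membrane proteins such as Lamp1 and Lamp2 line them, and hydrolases for protein, glycan and lipid do the digestion. Many of these genes carry a CLEAR element, an E-box bound by the related transcription factors Tfeb, Tfe3 and Mitf. Microglia and macrophages are known for a large lysosomal content, while neutrophil granulocytes store many of their hydrolases in granules that form in the bone marrow.

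The libraries held between 985423 and 18642747 counts, with a median of 11362593.5. Among them, 12 were of doubtful quality by total count, number of genes detected or abundant genes at 0, including 2 of the 4 tumour-free microglia, 3 of the 4 blood monocytes, small-stage MG 1 and 4, large-stage BMDM 2 and small-stage Gran 1. Defining markers were present in each sort, with summed granulocyte markers at 14420 to 42360 CPM in unirradiated Gran and 119 to 1333 CPM in the other unirradiated kinds, and summed microglia markers at 4806 to 12270 CPM in unirradiated MG. Summed monocyte and macrophage markers were at 3915 to 6823 CPM in unirradiated Mono and 539 to 2659 CPM in BMDM. They were at 2590 to 6314 CPM in Gran, so this list did not separate Mono from Gran. The BMDM sort was less uniform. Its summed dendritic cell markers ran from 293 to 2568 CPM and its summed microglia markers from 1079 to 6100 CPM, against 730 to 1493 CPM of microglia markers in Mono. CPM are counts scaled to a common library size, with library scaling factors, the threshold was an adjusted p of 0.05 over all genes tested, and p-values measure the spread between libraries, which may be technical, since nothing says that libraries came from separate mice.

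The mean log2 CPM over the 38 genes was highest in large-stage MG among the 28 groups, at 8.73 ± 0.09 (SD, n = 5). The other irradiated and unirradiated groups of MG, BMDM and Mono lay between 8.14 and 8.70, and those of Gran between 7.60 and 8.07. Tumour-free cells lay below all groups of MG, BMDM and Mono from tumours, with titled 5x2 microglia at 7.77 ± 0.09 for day 3 and 7.71 ± 0.12 for day 5 (SD, n = 3 each), tumour-free microglia at 7.17 ± 0.64 (SD, n = 4) and blood monocytes at 6.50 ± 0.80 (SD, n = 4). The wide spread of the last 2 groups came with their doubtful libraries: tumour-free microglia 2 and 3 were at 6.89 and 6.41, and the others at 7.70 each. Blood monocyte libraries 1, 2 and 3 were at 6.29, 5.60 and 6.56, and library 4 at 7.54. Small-stage Gran 1, in which 5.91% of abundant genes were at 0, stood at 6.59, below the other Gran libraries. Its median over the 38 genes was 8.95, above the 7.77 to 8.45 of the other small-stage Gran libraries, so its typical member was not low.

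**Figure D1:**
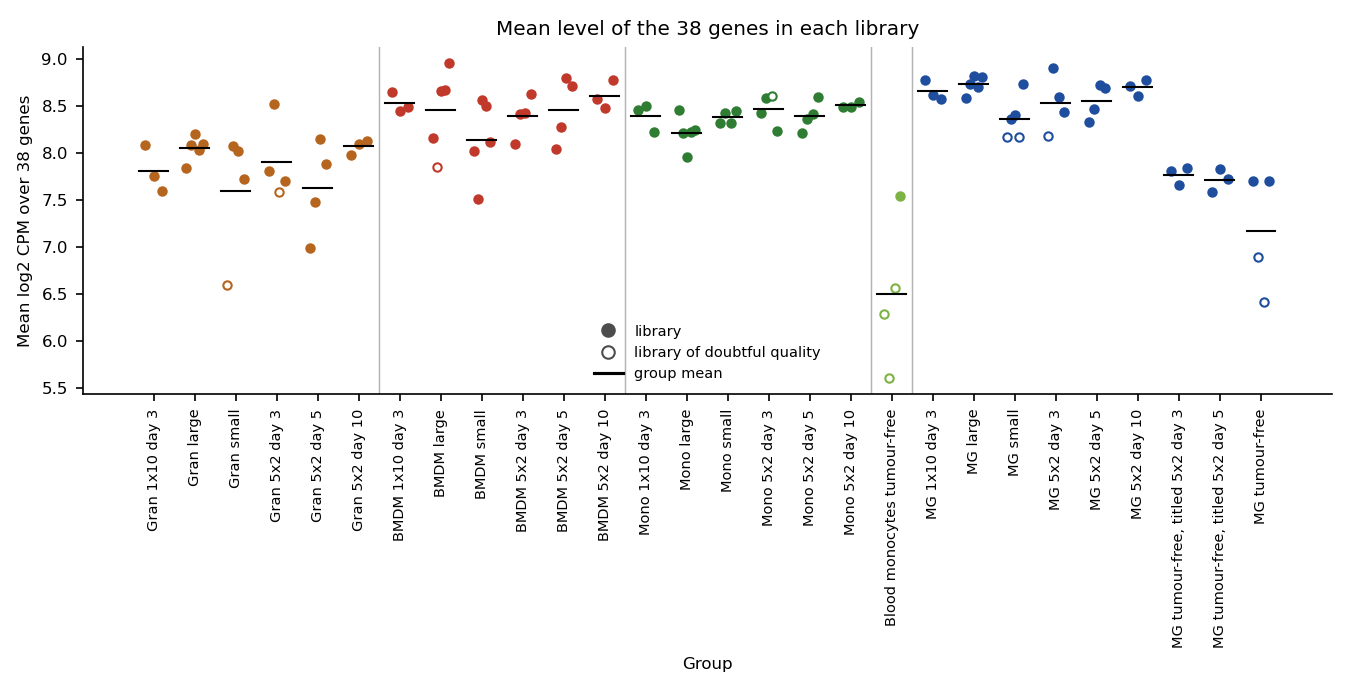
Mean log2 CPM over the 38 genes (vertical axis) in each library by group (horizontal axis), with open points for libraries of doubtful quality and bars for group means. All large-stage MG libraries lie between 8.59 and 8.82, above every tumour-free microglia library, the highest of which is at 7.84.

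These 38 genes took 5.09 ± 0.34% of all counts in unirradiated MG (SD, n = 10), 4.07 ± 0.84% in BMDM (n = 10), 3.65 ± 0.28% in Mono (n = 9) and 1.79 ± 0.21% in Gran (n = 9), against 2.90 ± 0.39% in tumour-free microglia and 1.75 ± 0.67% in blood monocytes (n = 4 each). A few genes carried most of it, since the top 6 members held between 52.2% and 56.5% of the members' counts in each pool of libraries, irradiated ones included. The first place by count went to Ctsb in MG, BMDM and Gran and to Psap in Mono. Per length of exon, Ctss, a cysteine protease of antigen-presenting cells, was the highest member in MG (3608 CPM per kb), BMDM (2810 CPM per kb) and Mono (2965 CPM per kb), and Ctsd, the main aspartic protease of lysosomes, was the highest in Gran (1338 CPM per kb). At the other end, Ctsk, the collagen-degrading protease of osteoclasts, and Atp6v0d2, an alternative subunit of the proton pump's membrane part, stayed below 10 CPM on average, and 31 members averaged 100 CPM or more.

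Among the 4 kinds of unirradiated tumour cells, mean levels of 18 members were highest in MG, of 10 in Gran, of 7 in Mono and of 3 in BMDM. The 18 included Ctsb, Ctsd, Ctsl, Ctss and Ctsz, the peptidases Lgmn and Tpp1, and the glycan hydrolases Gaa, Gusb, Hexa, Naglu and Man2b1. Levels of 21 members were lowest in Gran. These orders are of means only, and the tests between kinds follow.

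**Figure D2:**
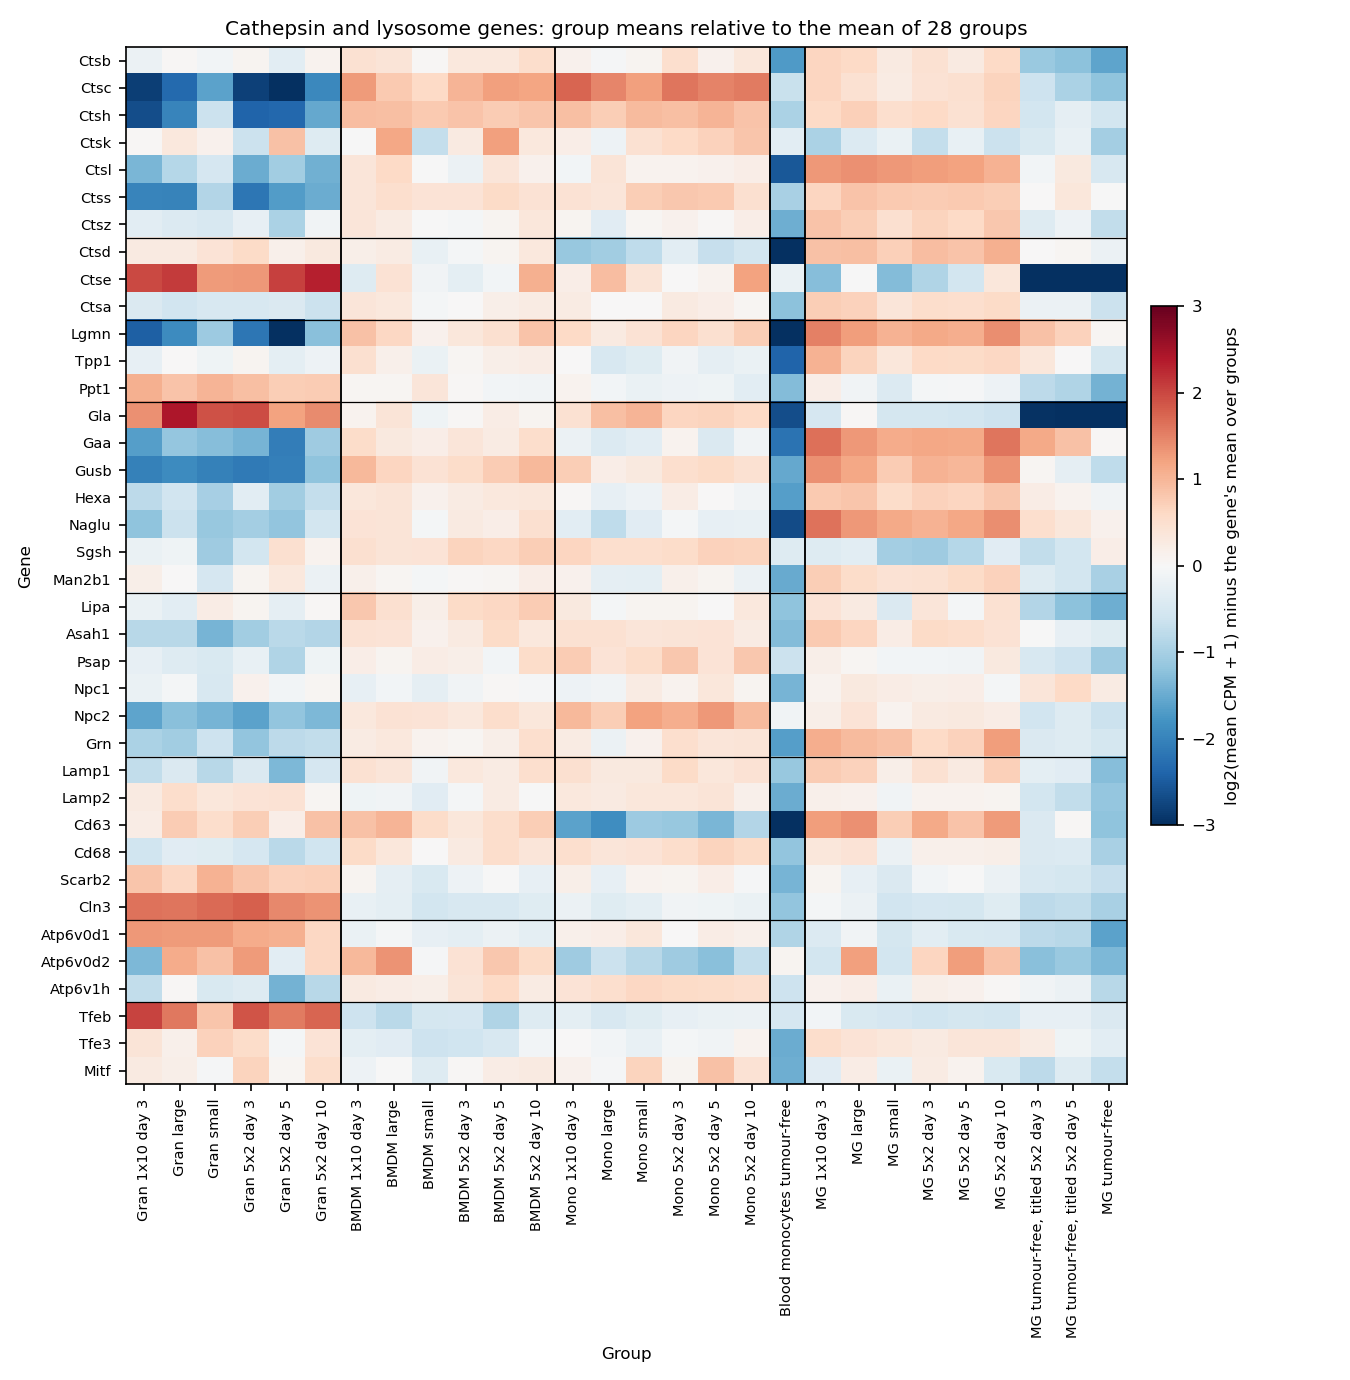
Level of each of the 38 genes (rows, ordered by role) in each of the 28 groups (columns), as log2 of the mean CPM plus 1 minus the gene's mean over groups, from blue (lower) to red (higher), with the colours ending at -3 and 3. Blood monocytes and tumour-free microglia are blue for most genes, and Gran separate into high genes (Gla, Cln3, Tfeb, Ctse) and low genes (Ctsc, Ctsh, Lgmn, Gusb).

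Microglia of metastatic brains carried more RNA of most genes of the set than tumour-free microglia. At the large stage 31 of the 38 genes were higher and 0 lower, with a median log2 fold change of 1.14, and at the small stage 27 were higher and 1 lower, with a median of 1.02. Over all 19754 genes tested, 31.9% were called at the large stage (11.7% higher, 20.2% lower, median -0.26) and 15.4% at the small stage (7.55% higher, 7.82% lower, median -0.03). Lysosomal genes are abundant, and of the genes averaging 100 CPM or more, 46.3% were higher and 2.52% lower at the large stage (median 0.62), and 32.8% were higher and 1.43% lower at the small stage (median 0.51). Of the 31 members at such levels, 29 were higher at the large stage (median 1.20) and 26 at the small stage (median 1.03), and none was lower. In bulk libraries of sorted cells, fewer cells of a type and less RNA per cell cannot be told apart.

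Gla, the enzyme that removes terminal galactose from glycolipids and is missing in Fabry disease, had the largest fold change among members of 10 CPM or more at both stages. Its level was 164, 138, 109.7, 153 and 131 CPM in large-stage MG and 80.8, 44.8, 101, 104 and 138 CPM in small-stage MG, against 11.7, 9.19, 10.3 and 10.4 CPM in tumour-free microglia. Every library of either stage lay above all 4 tumour-free ones. The log2 fold change was 3.60 ± 0.30 (SE, edgeR adjusted p = 2.1e-09) at the large stage and 3.17 ± 0.30 (adjusted p = 2.62e-08) at the small stage. The gene lies at chrX:134588149-134601125 on the minus strand (GRCm38).

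Gla was also 1 of 5 members, with Atp6v0d1, Ctsa, Ctsd and Cln3, whose promoter window in RefSeq (250 bases before to 50 after a start site, GRCm38.p6) held the palindrome TCACGTGA, the E-box CACGTG with the flanks of the CLEAR element. Of the 38 genes, 31 were matched in the promoter table. The flanked letters stood in 16.1% of these 31 genes, against 1.13% of the 27025 genes of the table, and the E-box alone, which includes the flanked form, in 35.5% of the members, against 8.09% of all genes. Both motifs read the same on both strands. Below are the windows of the 4 such members with the largest fold changes in large-stage MG, from 250 bases before to 25 after the start site, 5′ to 3′ on the gene's strand with each E-box in capitals: Gla at chrX:134600981-134601255 (minus strand), Atp6v0d1 at chr8:105566040-105566314 (minus), Ctsa at chr2:164833523-164833797 (plus) and Ctsd at chr7:142387803-142388077 (minus).
Gla: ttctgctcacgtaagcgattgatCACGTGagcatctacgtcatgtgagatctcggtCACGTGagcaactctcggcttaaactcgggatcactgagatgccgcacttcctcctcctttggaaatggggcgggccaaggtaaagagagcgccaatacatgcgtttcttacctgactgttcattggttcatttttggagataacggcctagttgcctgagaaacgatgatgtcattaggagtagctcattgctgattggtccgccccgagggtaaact
Atp6v0d1: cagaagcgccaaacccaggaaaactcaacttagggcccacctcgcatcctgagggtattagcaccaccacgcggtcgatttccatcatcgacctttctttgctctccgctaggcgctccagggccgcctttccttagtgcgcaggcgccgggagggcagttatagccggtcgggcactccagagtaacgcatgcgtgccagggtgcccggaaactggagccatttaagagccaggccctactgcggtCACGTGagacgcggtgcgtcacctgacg
Ctsa: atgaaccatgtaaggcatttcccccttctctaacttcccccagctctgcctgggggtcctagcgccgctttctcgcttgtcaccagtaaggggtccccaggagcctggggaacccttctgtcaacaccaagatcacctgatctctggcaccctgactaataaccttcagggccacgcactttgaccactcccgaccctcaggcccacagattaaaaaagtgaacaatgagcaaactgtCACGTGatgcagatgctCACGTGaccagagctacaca
Ctsd: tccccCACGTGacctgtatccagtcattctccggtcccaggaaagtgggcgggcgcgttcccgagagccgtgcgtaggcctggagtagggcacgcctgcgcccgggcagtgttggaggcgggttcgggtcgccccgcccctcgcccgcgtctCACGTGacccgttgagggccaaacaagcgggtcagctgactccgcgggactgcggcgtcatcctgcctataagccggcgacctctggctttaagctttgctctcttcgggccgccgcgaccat
In Gla the pair of E-boxes began 227 and 194 bases before the start site, in Ctsa they lay across it, 12 bases before it and 6 after, and in Atp6v0d1 the single one began 3 bases before it. In Ctsd the E-boxes began 245 and 98 bases before the start site, and only the one nearer to it had both flanks. These letters describe the window and say nothing of binding.

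Cysteine cathepsins, the papain-like proteases of the lysosome, were higher for 6 of 7 members at either stage. Ctsb, which was the most abundant of them by count, had 6282, 6041, 7578, 5939 and 6425 CPM in large-stage MG and 4506, 4969, 4888, 4684 and 6698 CPM in small-stage MG, against 1629, 1118, 1074 and 1918 CPM in tumour-free microglia. No tumour library came near the tumour-free range. Its log2 fold change was 2.03 ± 0.15 (edgeR adjusted p = 5.36e-10) at the large stage and 1.84 ± 0.15 (adjusted p = 3.02e-09) at the small stage. Ctsl had 2594, 2434, 1823, 1427 and 1944 CPM in large-stage MG and 1964, 1915, 2176, 1438 and 2259 CPM in small-stage MG, against 584, 306, 399 and 948 CPM in tumour-free microglia, again without overlap (log2 fold changes 1.76 ± 0.24 and 1.81 ± 0.24). Ctsc, the activator of granule proteases, rose by 1.57 ± 0.21 and 1.47 ± 0.21, Ctsz by 1.33 ± 0.15 and 1.20 ± 0.15, Ctsh by 1.12 ± 0.15 and 1.02 ± 0.15 and Ctss by 0.75 ± 0.17 and 0.82 ± 0.17 at the large and small stage. Ctsk did not pass, at 1.20 ± 0.99 CPM in large-stage MG and 1.55 ± 0.49 CPM in small-stage MG, against 0.454 ± 0.492 CPM in tumour-free microglia.

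Of the other cathepsins, the aspartic protease Ctsd and the serine carboxypeptidase Ctsa, which also protects partner glycosidases, rose at both stages, Ctsd by 0.91 ± 0.13 and Ctsa by 1.20 ± 0.14 at the large stage. Ctse, an aspartic protease of endosomes, was at 6.92, 32.1, 88.96, 28.8 and 11.4 CPM in large-stage MG and at 29.2, 11.7, 8.97, 9.91 and 5.68 CPM in small-stage MG, against 2.615, 3.48, 6.30 and 1.02 CPM in tumour-free microglia. Its levels were low and scattered, and the lowest large-stage library lay just above the highest tumour-free one. The log2 fold change was 3.30 ± 0.85 (edgeR adjusted p = 0.00485) at the large stage and 2.14 ± 0.82 (adjusted p = 0.073) at the small stage. Lgmn, an asparagine-specific protease that processes cathepsins, rose by 1.04 ± 0.24 at the large stage. The tripeptidase Tpp1 rose there by 1.13 ± 0.28 and the thioesterase Ppt1 by 1.25 ± 0.24, and all 3 also rose at the small stage. Without the doubtful libraries none of the 3 was called at the small stage (Lgmn 0.82 ± 0.36, Tpp1 0.34 ± 0.19, Ppt1 0.54 ± 0.18). Against the titled microglia none was called at that stage either (0.38 ± 0.21, 0.26 ± 0.24 and 0.52 ± 0.21). At the large stage against the titled microglia, Ppt1 was called (0.71 ± 0.21), and Lgmn (0.45 ± 0.21) and Tpp1 (0.48 ± 0.24) were not.

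Glycan hydrolases were higher for 6 of 7 members at both stages. Gusb, which cleaves glucuronic acid from glycosaminoglycans, rose by 1.80 ± 0.22 at the large stage, to 977 ± 162 CPM in large-stage MG, against 261 ± 128 CPM in tumour-free microglia. The mannosidase Man2b1 rose by 1.46 ± 0.32, the glycogen-degrading Gaa by 1.15 ± 0.33, Naglu, which degrades heparan sulfate, by 1.08 ± 0.25 and the hexosaminidase subunit Hexa by 0.78 ± 0.15. The exception was Sgsh, a sulfatase of the same heparan sulfate pathway as Naglu. It stood at 6.66, 22.2, 16.97, 13.5 and 18.9 CPM in large-stage MG and at 5.70, 10.4, 7.35, 10.1 and 12.3 CPM in small-stage MG, against 25.5, 15.2, 32.6 and 16.8 CPM in tumour-free microglia. Small-stage and tumour-free libraries did not overlap, while large-stage libraries did. Sgsh fell at the small stage (log2 fold change -1.33 ± 0.31, edgeR adjusted p = 0.00353) and did not pass at the large stage (-0.68 ± 0.30, adjusted p = 0.0828). In the annotation, Sgsh shares exon bases with Card14 on the opposite strand, and whether counting used the strand is not given in the sources used here. Other members share exon bases with genes on the opposite strand too, among them Ctsb, Ctsl and Ctsa. On its own strand Ctsd shares 808 exon bases with Gm49369, and Ctsl 395 with a pseudogene.

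Lipid-handling members rose at the large stage for 5 of 6. The lipase Lipa, which frees cholesterol from its esters, rose by 1.64 ± 0.28, the progranulin gene Grn by 1.35 ± 0.18, Psap, the precursor of the saposins, by 1.04 ± 0.23, the ceramidase Asah1 by 0.95 ± 0.26 and the cholesterol carrier Npc2 by 0.91 ± 0.23. Npc1, the membrane partner of Npc2 in cholesterol export, was at 101 ± 16.9 CPM in large-stage MG and 95.7 ± 27.0 CPM in small-stage MG, against 96.65 ± 35.5 CPM in tumour-free microglia (log2 fold changes -0.06 ± 0.18 and -0.04 ± 0.18, edgeR adjusted p = 0.827 and 0.929).

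Membrane proteins rose for 5 of 6 members at the large stage and 4 of 6 at the small stage. Cd63, a tetraspanin of late endosomes and of secreted vesicles, was at 389, 344, 432, 248.5 and 415 CPM in large-stage MG and at 216, 172, 308, 213 and 275 CPM in small-stage MG, against 65.1, 72.2, 65.3 and 39.6 CPM in tumour-free microglia. All tumour libraries were above all tumour-free ones, by a log2 fold change of 2.40 ± 0.26 (edgeR adjusted p = 2.14e-07) and 1.91 ± 0.26 (adjusted p = 6.22e-06). Lamp1 rose by 1.82 ± 0.26, Cd68, a glycoprotein much used as a marker of phagocytes, by 1.26 ± 0.21, Lamp2 by 1.21 ± 0.26 and Cln3, mutated in juvenile neuronal ceroid lipofuscinosis, by 0.68 ± 0.21 at the large stage. Scarb2, the carrier of glucocerebrosidase to lysosomes, did not pass at either stage.

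**Figure D3:**
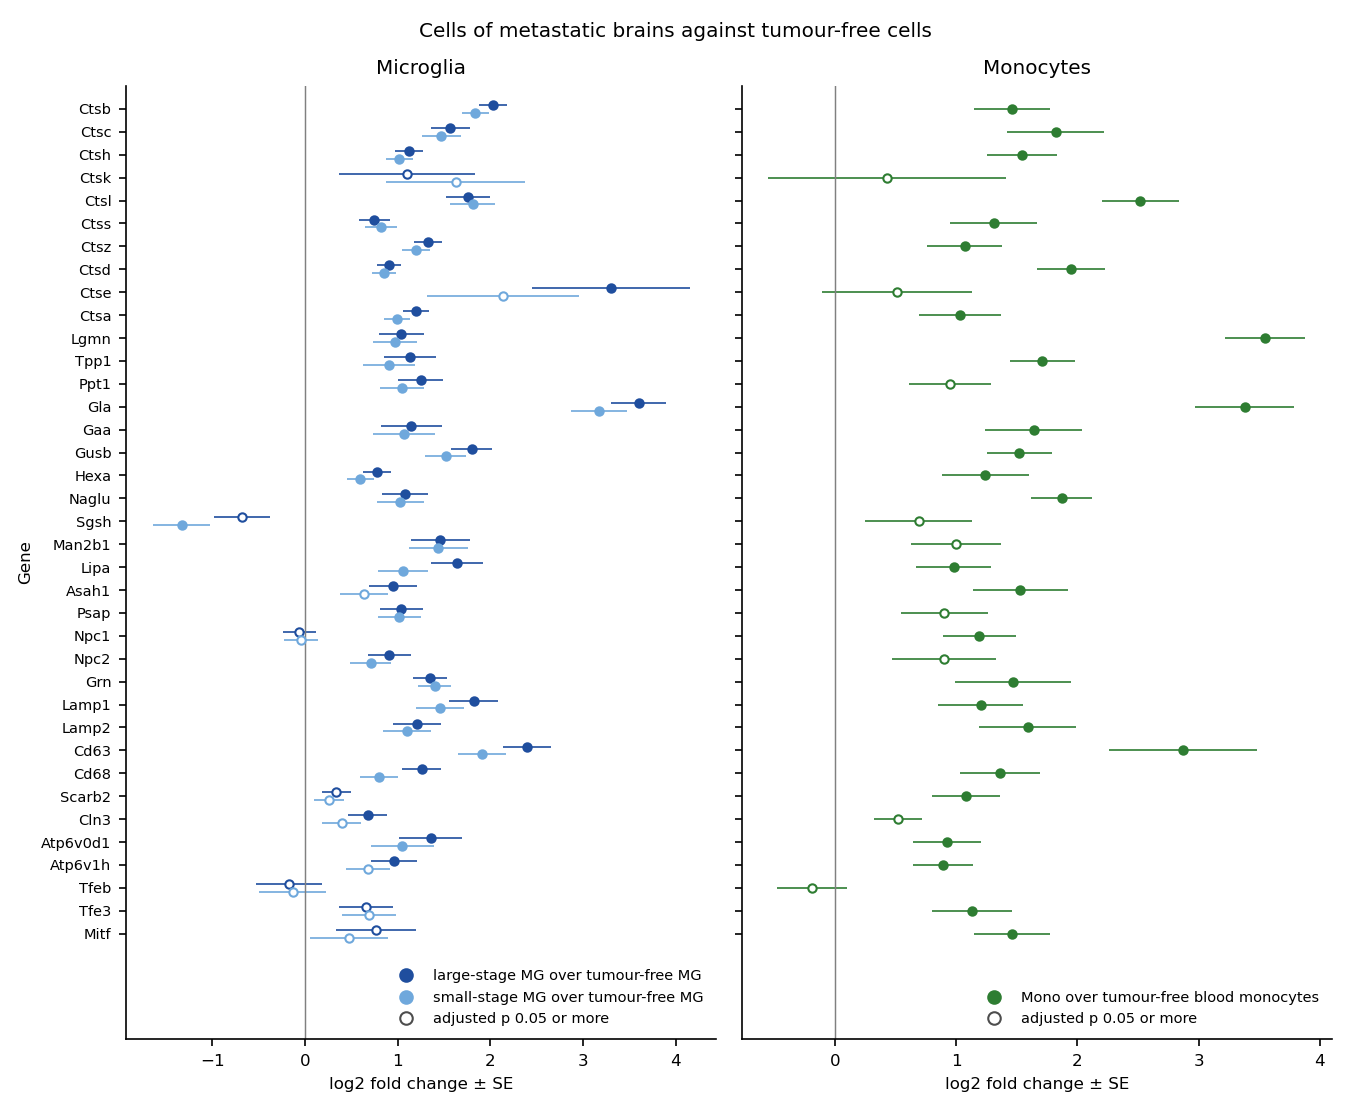
Log2 fold change ± SE (horizontal axis) of 37 of the 38 genes (rows), for microglia at the large and small stage over tumour-free microglia (left) and for Mono over tumour-free blood monocytes (right), with filled points for an adjusted p under 0.05. Atp6v0d2 is left out because its counts in tumour-free microglia were 0, and Sgsh is the one filled point below 0.

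Proton pump subunits rose for 3 of 3 members at the large stage. The ubiquitous subunit Atp6v0d1 rose by 1.36 ± 0.34 and Atp6v1h, which regulates the pump's outer part, by 0.96 ± 0.25. Without the doubtful libraries Atp6v0d1 was called at 1.13 ± 0.35 and Atp6v1h was not, at 0.44 ± 0.19. With the titled 5x2 microglia as the reference they were at 0.67 ± 0.29 and 0.34 ± 0.22, neither called. Atp6v0d2, known in the mouse from osteoclasts and macrophages, had 1.04, 0.758, 11.35, 3.65 and 7.95 CPM in large-stage MG and 0.525, 0.138, 0.387, 1.15 and 1.40 CPM in small-stage MG, against 0 counts in all 4 tumour-free microglia libraries. It was therefore at least 70.4-fold higher at the large stage (325 counts in all) and at least 10.25-fold higher at the small stage (45 counts), against a floor of 3 counts over the tumour-free group (0.0703 CPM). The fitted test passed at both stages (edgeR adjusted p = 0.00282 and 0.0401). Without the doubtful libraries it passed at the large stage (edgeR adjusted p = 0.0263) and not at the small stage (adjusted p = 0.215). The bounds hold for the 4 tumour-free libraries only. Against the titled 5x2 microglia the log2 fold changes of Atp6v0d2 were 5.46 ± 1.22 (edgeR adjusted p = 0.00171) and 2.86 ± 1.17 (adjusted p = 0.068). With this gene at its bound the medians over the set stayed at 1.14 and 1.02.

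The transcription factors of the set did not pass in microglia. Tfeb was at 50.02 ± 15.6 CPM in large-stage MG and 48.1 ± 23.1 CPM in small-stage MG, against 50.9 ± 34.4 CPM in tumour-free microglia, where the doubtful library 3 had 8.02 CPM. Tfe3 was at 231.5 ± 39.9, 221 ± 66.4 and 139 ± 97.7 CPM and Mitf at 39.2 ± 16.4, 29.1 ± 4.04 and 20.2 ± 14.8 CPM in large-stage, small-stage and tumour-free microglia, with edgeR adjusted p between 0.0779 and 0.489.

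Markers of other cells moved with this comparison. All 7 of 7 astrocyte markers were detected, with summed levels of 168 to 360.5 CPM in large-stage MG and 134 to 359 CPM in small-stage MG, against 859 to 1509 CPM in tumour-free microglia, and border macrophage markers (5 of 5 detected in each group) moved the other way, at 76.3 to 311.6 CPM in large-stage MG and 9.55 to 135 CPM in small-stage MG, against 7.45 to 19.75 CPM in tumour-free microglia. The part of either in the result was not tested. Without the doubtful libraries 22 members were higher at the large stage and 13 at the small stage, with 0 lower at either. At the large stage Tpp1 was then at 0.46 ± 0.18 and Asah1 at 0.34 ± 0.19, neither called, and Ppt1 (0.66 ± 0.17), Man2b1 (0.86 ± 0.24) and Lamp2 (0.57 ± 0.19) were smaller but called. The other members no longer called at that stage were Lgmn, Gaa, Naglu, Psap, Cln3, Ctss and Atp6v1h. With the compared groups alone in the fit 18 members were higher at the large stage and 11 at the small stage. For neither of these runs is the share of all genes called given here, so the counts are not set against it. With size-factor (RLE) scaling in place of TMM the median of all genes shifted by -0.25 at the large and -0.19 at the small stage, and the share of all calls that were higher became 23.4% in place of 36.7% and 33.9% in place of 49.1%. The members' calls under that scaling were 31 higher and 1 lower at the large stage and 24 higher and 1 lower at the small stage.

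The titled 5x2 tumour-free microglia lay between these groups in their mean over the set, but only with the doubtful tumour-free libraries included. Without those, tumour-free microglia were at 7.70 (n = 2), against 7.74 ± 0.10 in titled microglia (SD, n = 6). The members' median log2 fold change was then 0.10 for day 3 and 0.01 for day 5. Against the other tumour-free microglia, 0 members passed for day 3 (1.91% of all genes were called, 0.825% higher and 1.09% lower, 12 members had an unadjusted p under 0.05, and the lowest edgeR adjusted p was 0.0722) and 1 passed for day 5 (1.35% of all genes were called, 0.795% higher and 0.552% lower). The gene was Cd63, at 178.5, 113 and 141 CPM in titled day 5 microglia, against 65.1, 72.2, 65.3 and 39.6 CPM in tumour-free microglia, with no overlap (log2 fold change 1.08 ± 0.27, edgeR adjusted p = 0.0455), and with RLE scaling 0 members passed. DESeq2 called 3 members for day 3 and 2 for day 5. Gla was at 6.81, 14.5 and 15.6 CPM in titled day 5 and 13.7, 14.5 and 21.9 CPM in titled day 3 microglia, against 9.19 to 11.7 CPM in the tumour-free ones. In an alternative chosen after seeing the data, the titled libraries served as the reference, since none of them was of doubtful quality and their summed astrocyte markers were at 527 to 2783 CPM. Large-stage MG then had 26 members higher and 0 lower (median 0.81) and small-stage MG 21 higher and 0 lower (median 0.62). The share of all genes called against this reference is not given here, so these counts are not set against it. Gla remained called at 3.25 ± 0.25 and 2.83 ± 0.24, while Sgsh was at 0.33 ± 0.27 and -0.32 ± 0.28 (adjusted p = 0.444 and 0.416), so its small-stage decrease did not pass against the titled libraries.

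**Figure D4:**
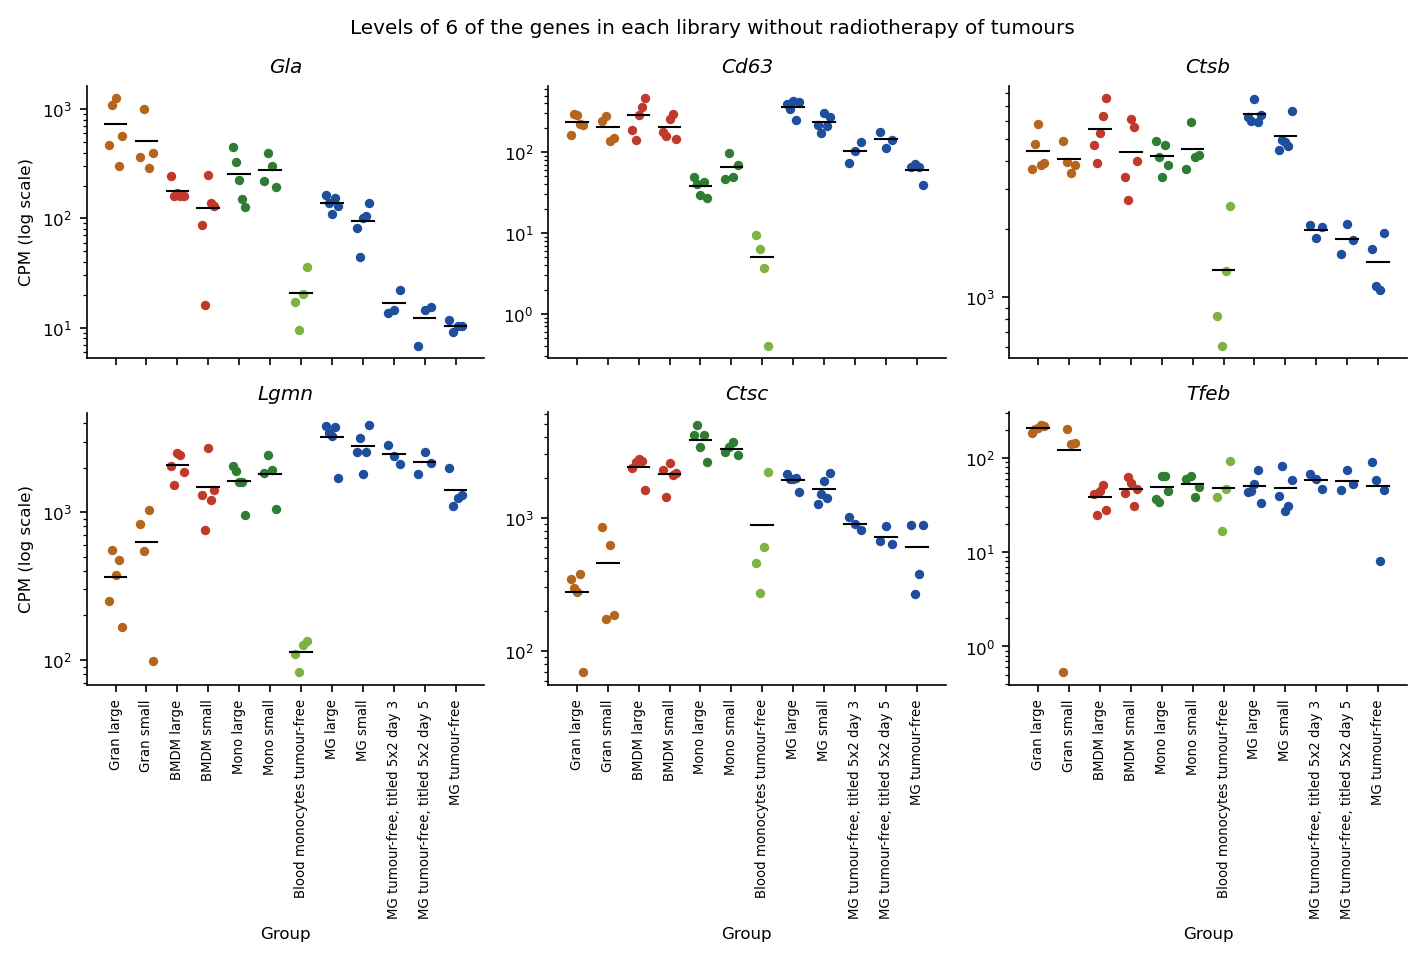
CPM on a log scale (vertical axis) of Gla, Cd63, Ctsb, Lgmn, Ctsc and Tfeb in each library of the groups without radiotherapy of tumours (horizontal axis), with bars for group means. Gla, Cd63 and Ctsb separate tumour microglia from tumour-free microglia, Lgmn separates Mono from blood monocytes, Ctsc is lower in Gran than in every other kind of tumour cell, and Tfeb is at 0.532 CPM in small-stage Gran 1 and at 142.5 CPM or more in the other Gran libraries.

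Between stages no member passed in any of the 4 kinds. The share of all genes called was 0.0% in MG, BMDM and Mono and 0.0141% in Gran, and the members with an unadjusted p under 0.05 numbered 5 in MG, 1 in BMDM, 3 of the 37 tested in Mono and 2 in Gran. In MG these were Cd68, Lipa, Cd63, Sgsh and Atp6v0d2, each with a higher mean at the large stage, such as 1140.0 ± 105.5 CPM of Cd68 in large-stage and 763 ± 188 CPM in small-stage MG (log2 fold change 0.46 ± 0.19, edgeR adjusted p = 0.37). Ctss had the lowest adjusted p in Gran, at 661, 887, 349, 777 and 795 CPM at the large stage, against 1557, 924, 2238 and 1337 CPM at the small stage (log2 fold change -1.30 ± 0.34, adjusted p = 0.0778). The groups did not overlap, but 887 and 924 CPM are close. With RLE scaling 9 members were called in this Gran comparison and with DESeq2 6, all lower at the large stage, while DESeq2 called 0 in MG, BMDM and Mono. The members' median log2 fold change in Gran was -1.0 with RLE scaling and with DESeq2, against -0.04 with TMM. DESeq2 gave an adjusted p to 28 of the 38 members there. The difference of the stage effect between BMDM and MG passed for 0 members (0.0% of all genes, lowest edgeR adjusted p of a member 0.176, 1 member with an unadjusted p under 0.05).

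Inflammatory monocytes of unirradiated tumours had higher lysosomal RNA than tumour-free blood monocytes for 28 members and lower for none, with a median log2 fold change of 1.22. Of all genes, 26.3% were called (10.6% higher, 15.7% lower). At mean levels of at least 100 CPM the share was 36.5% for higher and 1.85% for lower genes (median 0.65), while 26 of the 31 members at such levels were higher and 0 lower (median 1.36). Lgmn ranged from 962 over a median of 1847 to 2418 CPM in Mono, against 109.8, 82.4, 126 and 135 CPM in blood monocytes. These ranges were far apart (log2 fold change 3.55 ± 0.33, edgeR adjusted p = 2.42e-05). Gla, at 127 to 447 CPM with a median of 225 CPM in Mono, against 17.3, 9.43, 20.4 and 36.1 CPM in blood monocytes, was separate as well (3.38 ± 0.41, adjusted p = 0.00012).

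Cd63 was low in both monocyte groups, at 27.1 to 98.4 CPM (median 46.2 CPM) in Mono, against 9.49, 6.42, 3.69 and 0.403 CPM in blood monocytes (log2 fold change 2.87 ± 0.61, edgeR adjusted p = 0.00447). Ctsl was at 571 to 1212 CPM (median 990.4 CPM) in Mono, against 140.5, 50.95, 107.5 and 236 CPM in blood monocytes (2.52 ± 0.32, adjusted p = 0.00017). Neither gene's libraries overlapped between the groups. By role, 6 of 7 cysteine cathepsins, 5 of 7 glycan hydrolases, 5 of 6 membrane proteins and 4 of 6 lipid-handling genes rose. Of the transcription factors, Mitf (1.46 ± 0.31) and Tfe3 (1.13 ± 0.33) rose and Tfeb did not pass, at 50.9 ± 12.9 CPM in Mono and 48.5 ± 31.8 CPM in blood monocytes.

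The blood monocyte group limits this comparison. Its monocyte and macrophage markers summed to 916.5 to 7705 CPM, and only library 4 was not doubtful. B cell markers summed to 0 to 16.8 CPM in Mono, against 63.6 to 292 CPM in blood monocytes, and microglia markers to 730.4 to 1493 CPM in Mono, against 137 to 283 CPM, and their part in the result was not tested. With library 4 alone as the reference, the median log2 fold change over the members was 0.40, in place of 1.22 with all blood libraries. All 28 called members kept their sign, but a kept sign did not mean a kept size. Ctsd was at 2.11, Lgmn at 3.68 and Cd63 at 6.93, while Ctsa was at 0.05, Grn at 0.17, Hexa at 0.18 and Lipa at 0.19. Of the transcription factors above, Mitf was then at 1.55 and Tfe3 at 0.09. RLE scaling shifted the median of all genes by -0.24 (28.1% of calls higher in place of 40.2%) and called 29 members higher and 0 lower, while leaving out blood monocytes 2 or 3 gave 17 or 18 calls.

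Macrophages of unirradiated tumours (BMDM) had lower lysosomal RNA than microglia of such tumours for 12 members and higher for 2, with a median log2 fold change of -0.24. Of all genes 29.9% were called, 16.1% higher and 13.8% lower, and at mean levels of at least 100 CPM 26.5% and 18.5%, against 1 higher and 12 lower of the 31 members at such levels. For no member were the libraries of the groups apart. Naglu ranged from 31.1 over a median of 123 to 298 CPM in BMDM, against 192, 302 and 362.5 CPM in MG, and Ctsl from 325 over 925 to 1980.0 CPM, against 1427, 1954 and 2594 CPM. In both genes the BMDM libraries were the more spread and their upper end reached into the MG range. The log2 fold changes were -1.09 ± 0.26 (edgeR adjusted p = 0.00368) and -1.08 ± 0.24 (adjusted p = 0.00178).

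Gaa was at 57.4, 127.5 and 373 CPM (lowest, median and highest) in BMDM, against 191, 321 and 461 CPM in MG (log2 fold change -0.97 ± 0.27). Tfe3 was at 80.1, 121 and 179 CPM in BMDM, against 157, 213 and 307.5 CPM in MG, with a narrow overlap and the lowest adjusted p of the set (-0.88 ± 0.15, edgeR adjusted p = 0.000135). Ctsd (-0.82 ± 0.24), Lgmn (-0.79 ± 0.21), Grn (-0.74 ± 0.23), Tpp1 (-0.55 ± 0.18), Ctsz (-0.52 ± 0.15), Gusb (-0.43 ± 0.14), Ctsa (-0.42 ± 0.15) and Ctss (-0.38 ± 0.14) were the other lower members. In the other direction, Sgsh was at 12.45, 25.1 and 39.0 CPM in BMDM, against 5.70, 11.3 and 22.2 CPM in MG (1.10 ± 0.23, adjusted p = 0.00102), and Ppt1 at 701, 926 and 1425 CPM, against 448, 730.2 and 853 CPM (0.45 ± 0.11, adjusted p = 0.00373). Both overlapped.

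Within BMDM the level of the set moved with markers of other cells. The library with the highest mean over the 38 genes, large-stage BMDM 5 (8.96), had the highest summed microglia markers (6100.0 CPM) and the lowest summed dendritic cell markers (293 CPM). The library with the lowest mean, small-stage BMDM 2 (7.51), had the highest dendritic cell markers (2568 CPM) and 1510.0 CPM of microglia markers, which were lowest in large-stage BMDM 2 (1079 CPM). The part of these cells' RNA in the BMDM values was not tested. Without the doubtful libraries 2 members were higher and 7 lower, and leaving out single libraries gave between 9 calls (without small-stage BMDM 5) and 17.

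Between macrophages and inflammatory monocytes of unirradiated tumours 3 members were higher in BMDM and 1 lower, with a median log2 fold change of -0.04. Of all genes 13.8% were called, 7.22% higher and 6.59% lower, so the members' share of calls was close to that of all genes, and DESeq2 called 8 members. Cd63 ranged from 140.3 over a median of 222 to 461 CPM in BMDM, against 27.1, 46.2 and 98.4 CPM in Mono, and was the only member whose libraries did not overlap (2.33 ± 0.23, edgeR adjusted p = 4.54e-06). Ctsd was at 776, 2687 and 4695 CPM in BMDM, against 947, 1183 and 1961 CPM in Mono (0.96 ± 0.27, adjusted p = 0.0192), so the lowest BMDM library lay below every Mono library. Ppt1 was at 701, 926 and 1425 CPM, against 654, 746 and 934 CPM (0.41 ± 0.13), and Ctsc at 1433, 2308 and 2769 CPM, against 2631, 3406 and 4962 CPM (-0.60 ± 0.15, adjusted p = 0.0104). With the replicate number as a block, Ctsd (0.83, edgeR adjusted p = 0.0744) and Ppt1 (0.36, adjusted p = 0.0806) did not pass. Without small-stage BMDM 2, or without small-stage BMDM 3, 7 members were called, and without small-stage Mono 1 it was 2.

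**Figure D5:**
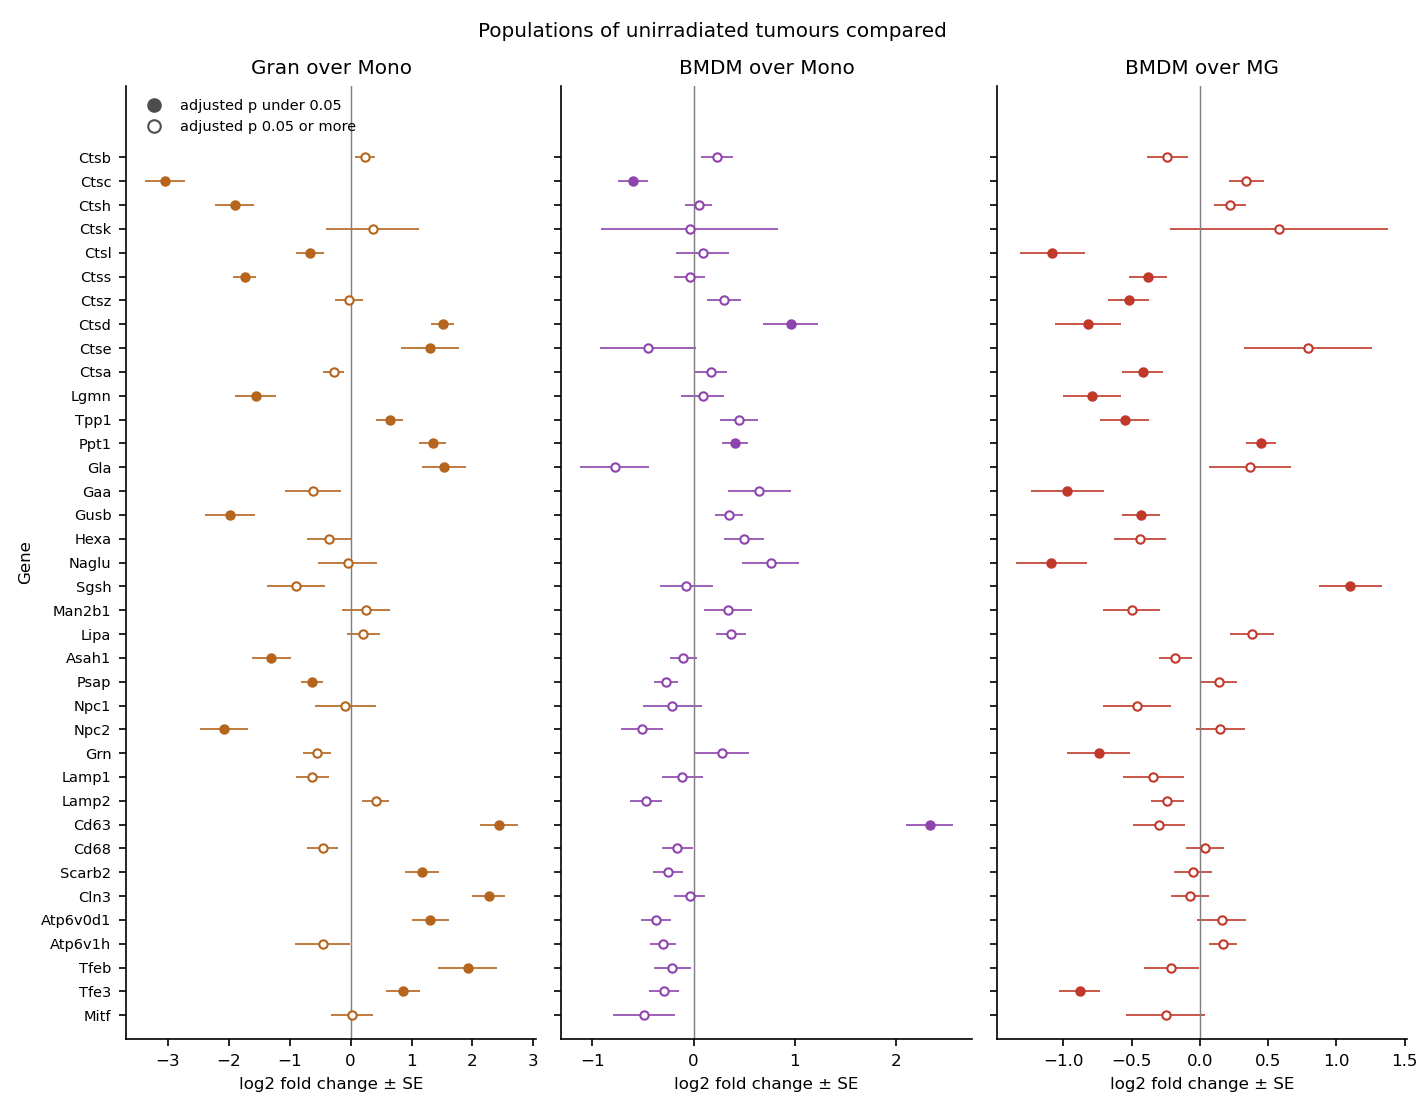
Log2 fold change ± SE (horizontal axes, with different ranges) of 37 of the 38 genes (rows) between kinds of cells of unirradiated tumours, for Gran over Mono, BMDM over Mono and BMDM over MG, with filled points for an adjusted p under 0.05. Gran over Mono spans -3.05 for Ctsc to 2.43 for Cd63, while BMDM over Mono has 4 filled points, and in BMDM over MG 12 of the 14 filled points lie below 0.

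In granulocytes 12 members were higher and 9 lower than in Mono, with a median log2 fold change of -0.04. Of all genes 49.9% were called, with 26.9% lower, so the members' share of calls was close to that of all genes. Under RLE scaling 12 were higher and 5 lower. Of the 9 lower members 4 were cysteine cathepsins, a list of 7 in which Ctsb, Ctsz and Ctsk did not pass. Ctsc ranged from 69.4 over a median of 299 to 856 CPM in Gran, against 2631, 3406 and 4962 CPM in Mono (-3.05 ± 0.33, edgeR adjusted p = 1.92e-07). Npc2 ranged from 10.6 over 225 to 419 CPM, against 748, 1091 and 2283 CPM (-2.08 ± 0.39), and Gusb from 7.98 over 90.35 to 275 CPM, against 399.8, 522 and 614 CPM (-1.98 ± 0.41). The lowest value of Npc2 and Gusb was that of small-stage Gran 1, and all 3 genes were apart between the groups. Ctsh was at 133.5 to 1082 CPM with a median of 157 CPM in Gran, against 969 to 1449 CPM with a median of 1162 CPM in Mono (-1.90 ± 0.32), and its 1 overlapping library was small-stage Gran 1. Ctss (-1.74 ± 0.19), Lgmn (-1.56 ± 0.34), Asah1 (-1.30 ± 0.32), Ctsl (-0.67 ± 0.23) and Psap (-0.64 ± 0.18) were lower as well. Under RLE scaling Psap turned to 0.12, and Ctsl and Ctsh were not called.

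In Gran 3 of 6 membrane proteins, 2 of 3 proton pump subunits and 2 of 3 transcription factors rose. Cd63, which in human neutrophils marks azurophil granules, ranged from 137 over 223 to 297 CPM in Gran, against 27.1, 46.2 and 98.4 CPM in Mono (2.43 ± 0.31, edgeR adjusted p = 1.45e-06), and Cln3 from 280.1 over 395 to 809 CPM, against 95.9, 107 and 160.5 CPM (2.27 ± 0.27, adjusted p = 6.6e-07). Both were apart between the groups. Tfeb was at 0.532 CPM in small-stage Gran 1 and had a median of 202 CPM and a highest value of 225 CPM, against 33.9, 49.85 and 65.2 CPM in Mono (1.92 ± 0.49, adjusted p = 0.00267), so the doubtful library alone overlapped. Gla was at 292, 466 and 1256 CPM in Gran, against 127, 225 and 447 CPM in Mono (1.53 ± 0.36, adjusted p = 0.00119). Ctsd (1.51 ± 0.19), Ppt1 (1.35 ± 0.22), the proton pump's Atp6v0d1 (1.31 ± 0.30), Ctse (1.30 ± 0.48), Scarb2 (1.17 ± 0.28), Tfe3 (0.86 ± 0.28) and Tpp1 (0.64 ± 0.22) rose too. Atp6v0d2 was called at 4.11 ± 6.07 CPM in Gran and 0.522 ± 0.881 CPM in Mono, but without small-stage Gran 2 its fold change turned to -0.89. Ctsb, the leading cathepsin by count, did not pass, at 4266 ± 755 CPM in Gran and 4352 ± 771 CPM in Mono. Without the doubtful libraries 12 members were higher and 12 lower.

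By edgeR, radiotherapy changed no member past the threshold. Each irradiated group was compared with the small and large stages of its kind together, 16 comparisons in all, and 0 of the members passed in any of them. DESeq2 called 2 members, both lower, in Gran after 1 fraction of 10 Gy, 1 lower in Gran at day 5 and 0 in the others. In these Gran groups DESeq2 gave an adjusted p to 30 of the 38 members. The members' median log2 fold change there was -0.76 and -0.84 by DESeq2, against -0.28 and -0.30 by edgeR. The share of all genes called was 0.101% in MG after 1 fraction of 10 Gy, 0.0607%, 0.0354% and 0.00506% in MG at days 3, 5 and 10 of the 5 fractions of 2 Gy, 0.0063% in BMDM after 1 fraction of 10 Gy, and 0.0% in the other comparisons. Unadjusted p-values under 0.05 over the 4 comparisons of a kind, for the 36 members of 10 CPM or more, numbered 12 in Gran (lowest adjusted p 0.418), 5 in BMDM (0.462), 11 in Mono (0.424) and 3 in MG (0.615). The median SE of a member's log2 fold change was 0.40 to 0.45 in Gran, 0.23 to 0.26 in BMDM, 0.18 to 0.20 in Mono and 0.21 to 0.23 in MG, which sets the size of change these comparisons could resolve. The median fold change by edgeR over these members stayed between -0.30 and 0.20 in the 16 comparisons.

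The largest fold changes among members of 10 CPM or more were in Gran, where Lgmn at day 5 was furthest from 0, followed by Ctsh after 1 fraction of 10 Gy (-1.57 ± 0.52, edgeR adjusted p = 0.772), at 142.7, 100.2 and 73.4 CPM, against 133.5 to 1082 CPM without irradiation. Ctsc in BMDM was at 3561, 3491 and 3132 CPM after 1 fraction of 10 Gy, against 1433 to 2769 CPM with a median of 2308 CPM without irradiation, so the groups were apart (log2 fold change 0.54 ± 0.18), and it was at 2807, 3866, 4007 and 2508 CPM at day 5 (0.50 ± 0.17) and 3279, 3096 and 3197 CPM at day 10 (0.45 ± 0.18) of the 5 fractions of 2 Gy. The lowest edgeR adjusted p of any member in these 3 comparisons was 0.462. Lgmn in Gran was at 56.4, 168.5, 269.6 and 112 CPM at day 5, against 97.7 to 1026 CPM with a median of 472 CPM without irradiation, with overlap (-1.74 ± 0.50, lowest adjusted p of the comparison 0.418). These comparisons of a kind share their unirradiated libraries. Irradiated MG kept the high level of the set, with a mean log2 CPM over the 38 genes of 8.60 ± 0.19 (SD, n = 14), against 8.55 ± 0.25 in unirradiated MG (n = 10). The difference between BMDM and MG in the effect of 5 fractions of 2 Gy at day 3 passed for 0 members (0.00516% of all genes, lowest edgeR adjusted p of a member 0.832, 1 member with an unadjusted p under 0.05).

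Other genes of the pathway, listed by role outside the set, gave the surroundings of these changes. In large-stage MG 57 of 102 tested were higher and 3 lower than in tumour-free microglia (all genes 11.7% and 20.2%), and in small-stage MG 41 were higher and 2 lower (all genes 7.55% and 7.82%). Cst7, an inhibitor of cysteine cathepsins, was at 376 ± 99.7 CPM in large-stage MG and 272 ± 136 CPM in small-stage MG, against 4.52 ± 3.44 CPM in tumour-free microglia (log2 fold changes 6.16 ± 0.56 and 5.80 ± 0.56, edgeR adjusted p = 1.49e-08 and 3.16e-08). Rab7b, a small GTPase of the late endosome, was at 91.9 ± 34.7 and 63.02 ± 43.7 CPM in the same tumour groups, against 1.19 ± 0.30 CPM (6.17 ± 0.76 and 5.77 ± 0.75). The autophagy receptor Sqstm1 and the late endosomal protein Litaf rose too. Cst3, the secreted cathepsin inhibitor cystatin C, fell by 1.02 at the large stage, to 3870.0 ± 899 CPM in large-stage MG, against 6819 ± 3425 CPM in tumour-free microglia, and Slc36a1, an amino acid exporter of lysosomes, fell by 1.14. Of the proton pump's other genes 11 of 15 rose at the large stage, and none fell.

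In BMDM over MG 22 of 102 genes were higher and 26 lower, beside 16.1% and 13.8% of all genes. Ocstamp, needed for fusion of osteoclasts in the mouse, was at 22.75 ± 9.165 CPM in BMDM and 0.526 ± 0.401 CPM in MG (log2 fold change 5.48 ± 0.45), and Acp5, the tartrate-resistant phosphatase, rose by 2.63 ± 0.30. The sulfatase Arsb and the cysteine protease Ctsf each fell by 1.80. In BMDM over Mono 12 genes were higher and 12 lower, beside 7.22% and 6.59% of all genes, with Cst3 higher by 0.99 ± 0.12 and Hgsnat, an enzyme of heparan sulfate breakdown, lower at -1.34 ± 0.24. In Mono over blood monocytes 50 rose and 3 fell, beside 10.6% and 15.7% of all genes, with Rab7b at 289.9 ± 123 CPM in Mono and 12.9 ± 6.10 CPM in blood monocytes and the lymphocyte protease Ctsw at 2.13 ± 3.48 CPM, against 119.7 ± 137 CPM. In Gran over Mono 35 of 104 were higher and 22 lower, and since 49.9% of all genes were called, this share is close to that of all genes. Mmp9, the gelatinase of neutrophil granules, was at 2431 ± 605 CPM in Gran and 3.535 ± 4.65 CPM in Mono, Map1lc3b, a marker of autophagosomes, rose by 1.73 ± 0.19, and Scpep1, a serine carboxypeptidase, was at 12.4 ± 9.38 CPM in Gran and 188 ± 50.6 CPM in Mono. Of the proton pump's other genes 10 of 15 rose in Gran and 1 fell.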

How the data were processed

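RNA of sorted cells was sequenced in libraries of 28 groups, assigned from the labels. Per the submitters' processing notes, the tools were HTSeq, TopHat2 2.0.14, DESeq2 1.18.1 and FastQC, and the build GRCm38. The authors deposited whole-number counts per gene, not normalized, and the strand of counting is not given in the sources used here. The 233 genes with no symbol stayed in the tests. From the counts, CPM were computed with TMM factors over all libraries, and log2 CPM with a prior count of 2. Each kind of cell, or pair of kinds, was fitted with 1 mean per group by edgeR 4.0.16 (quasi-likelihood F-test, filterByExpr with a minimum count of 10 and a minimum total of 15), with Benjamini-Hochberg adjustment over all genes tested. Standard errors were taken from the fold change and its F statistic. Libraries were called doubtful with fewer than 3000000 counts, more than 30000 genes detected, or more than 1% of genes with a median of at least 50 CPM at 0. Alternatives were RLE scaling, no filter, DESeq2 1.42.0, a replicate block, the compared groups alone, doubtful libraries left out, each library left out, other reference groups and, added after seeing the data, titled microglia as the reference. Named genes were the called ones of at least 10 CPM with the largest changes, up to 4 per direction, and, of other pathway genes, those with the lowest adjusted p, of which 1 is not reported here. The members and lists were chosen with earlier results of these data known. The fits were tested on simulated data. R 4.3.3, limma 3.58.1, Python 3.11.15, pandas 2.3.3 and matplotlib 3.10.9 were used.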

Additional observations from a re-analysis of the deposited data

Results flagged for a closer look

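A library far from the others of its group was looked for in 105 sets of values, each of a named gene or of the mean over the 38 genes in 1 group of 4 or 5 libraries, and chance alone marks about 1 in 20. There were 4. Ctsb stood at 6698 CPM in small-stage MG 5, while the other 4 libraries were between 4506 and 4969 CPM. Cln3 was at 160.5 CPM in small-stage Mono 4, with the others between 95.9 and 101 CPM. Gla was at 998.1 CPM in small-stage Gran 2, with the others between 292 and 397 CPM. Npc2 was at 395.9 CPM in large-stage Gran 5, with the others between 189 and 229 CPM.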

How the results depend on the processing

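Called members were counted if called under every alternative run that gave them an adjusted p. Over tumour-free microglia they numbered 16 of 31 in large-stage and 11 of 28 in small-stage MG. They numbered 7 of 14 in BMDM over MG, 2 of 4 in BMDM over Mono and 12 of 21 in Gran over Mono. In Gran over Mono DESeq2 gave an adjusted p to only 24 members of the set and called 10 of the 21. At most 10 of the 21 were therefore called under every run, DESeq2 included. Mono over blood is left out of this count, since leaving out doubtful libraries left only blood monocyte library 4. Fitted alone, the compared groups gave 18 calls in large-stage and 11 in small-stage MG. Without doubtful libraries there were 13 in small-stage MG and 9 in BMDM over MG, and the members' median log2 fold change in Mono over blood was 0.40. DESeq2 gave 8 in BMDM over Mono, 12 in Gran over Mono, 6 in Gran between stages, 3 and 2 in titled day 3 and day 5 microglia, 2 in Gran after 10 Gy and 1 in Gran at day 5. RLE scaling gave 9 in Gran between stages, 1 in titled day 3 and 0 in titled day 5, which also had 0 alone. With no filter 1 member was called in each of the same irradiated Gran groups.

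Leaving out single libraries gave 29 to 34 calls in large-stage MG, 23 to 30 in small-stage MG, 17 to 34 in Mono over blood (17 without blood 2, 18 without blood 3), 9 to 17 in BMDM over MG, 2 to 7 in BMDM over Mono, 20 to 24 in Gran over Mono, 0 to 2 in Gran between stages, 0 to 7 in titled day 3 (7 without tumour-free 4, 5 without tumour-free 1) and 0 to 2 in titled day 5. Psap in Gran over Mono was at 0.12 under RLE scaling, and Atp6v0d2 ran from -0.89 (without small-stage Gran 2) to 4.84 when single libraries were left out. The cause was not tested.

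Replicate numbers are shared between groups, but same-numbered libraries did not deviate together in every pair (in BMDM over Mono the correlation was over 0.1 in 7 of 9 pairs, with a median of 0.455 against -0.093 for other pairs and a lowest of -0.078). With the replicate block, 0 members were called in titled day 5, the other counts stayed within 1.5 times, and Ctsd and Ppt1 in BMDM over Mono were not called.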
